A study of Glycine max with 3 samples.

Results

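The miR1507 family is a group of legume miRNAs that act on disease resistance genes. Its members were taken by name, as every profile entry that bears the family's number, on either arm of its hairpin, and 1 entry was kept per distinct mature sequence. This gave 5 sequences of the 381 distinct sequences profiled, from 6 of 587 entries and 3 hairpins. The degradome table added 7 of its 898 pairs of a small RNA and a transcript, at 4 of its 275 gene loci. All libraries came from leaf tissue of Taiwan 75, a cultivar of vegetable soybean (Glycine max), which is grown for its immature green seeds. Small RNA was sequenced from 1 library of control plants, whose days were at 25 °C and nights at 17 °C, and from 1 library of plants moved at the stage of 1 true leaf to 4 °C for 24 h. In each condition leaves of 3 replicates had been pooled before sequencing, so each condition has a single value per sequence and the differences below compare 2 libraries with no replicate check. The degradome library mixed chilled and control leaves, so it carries no difference between conditions, and it is labelled as sampled 10 days after pollination, which could not be reconciled with the other labels.

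A plant miRNA is cut from a hairpin transcript as a short duplex of a 5′ arm and a 3′ arm. In general 1 strand is loaded into an Argonaute protein and guides the cutting of matching messenger RNAs, while the other strand is mostly lost. Members of miR1507 that act on resistance genes come from the 3′ arm and pair with the region coding for the NB-ARC domain, the nucleotide-binding switch of plant immune receptors. In legumes such miRNAs of 22 nt are known to trigger the making of secondary phased small RNAs from the transcripts they cut.

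The 5 mature sequences are shown so that their arms and seeds (bases 2 to 8, in capitals) can be compared. They are given 5′ to 3′ as deposited, with T for the U of the RNA.
miR1507a: tCTCATTCcatacatcgtctga
miR1507c-3p: cCTCATTCcaaacatcatctaa
MIR1507a-p5: aGAGGTGTatggagtgagaga
MIR1507b-p5: aGAGATGTatggagtgagaga
miR1507c-5p: aGAGGTGTttgggatgagaga

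Both 3′-arm sequences, miR1507a and miR1507c-3p, are 22 nt long and share the seed CTCATTC. With positions counted from 1 at the 5′ end and the base of miR1507a given first, miR1507c-3p differs from miR1507a by T1C, T11A, G17A and G21A, so that 18 of 22 bases are identical. The other 3 sequences are 21-nt 5′ arms. The sequences whose names end in p5, MIR1507a-p5 and MIR1507b-p5, lie opposite miR1507a in their hairpins. MIR1507a-p5 and MIR1507b-p5 differ at a single base, G5A, which lies in the seed, and MIR1507a-p5 and miR1507c-5p share the seed GAGGTGT and differ by A9T, A13G and G14A.

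The 3 hairpins are shown with both listed arms in capitals, since the 2 hairpins on chromosomes 13 and 17 carry the same 3′ arm but different 5′ arms. Coordinates are as deposited, on a genome build that the sources used here do not name.
MIR1507a hairpin, chr13:27036567-27036673, plus strand: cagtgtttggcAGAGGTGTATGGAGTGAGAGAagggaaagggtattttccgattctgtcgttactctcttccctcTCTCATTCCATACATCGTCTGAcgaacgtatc
MIR1507b hairpin, chr17:5926147-5926244, plus strand: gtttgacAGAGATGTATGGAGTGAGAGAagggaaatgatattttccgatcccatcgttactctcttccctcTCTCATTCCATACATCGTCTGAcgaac
MIR1507c hairpin, chr9:17134671-17134760, minus strand: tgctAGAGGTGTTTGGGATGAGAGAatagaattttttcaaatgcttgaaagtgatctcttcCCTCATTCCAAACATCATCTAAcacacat

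RefSeq (Glycine_max_v4.0) lists genes for MIR1507a, MIR1507b and MIR1507c on the same chromosomes and with the same lengths of 107, 98 and 90 bases. In the folded structure the authors deposited, 19 bases of one arm pair with the other arm in the MIR1507a hairpin and 19 in the MIR1507b hairpin, against 18 in MIR1507c. The 3′ arm runs 2 bases past the 5′ arm in each of the 3 hairpins, and the 5′ arm runs 2 bases past the 3′ arm at the other end, which is the form that Dicer-like enzymes leave. The folding energy given is -54.7 for MIR1507a, -47.7 for MIR1507b and -35.8 for MIR1507c, in the authors' unit. Which hairpin a read of miR1507a came from cannot be told from its sequence. The table lists miR1507a at both hairpins with the same 11160.5 control and 28362.5 chilled reads. These may be the reads shared out over 2 loci, since 61 of the 75 sequences listed at 2 entries held a fraction of a read, against 55 of the 275 listed once.

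The members did not differ in 1 direction. After chilling miR1507a, the 3′-arm sequence of 22 nt, stood higher, and the 4 other members stood lower. In the deposited table miR1507a had 11160.5 reads in the control library and 28362.5 in the chilled library, out of 3856902 and 5347700 reads over all sequences. Scaled for depth with edgeR's TMM method, this came to 12155 and 26041 normalised reads, a log2 ratio of chilled to control of 1.10 (95% interval 1.07 to 1.13). All intervals of ratios and shares cover counting error only, because each condition has 1 library. No molecular identifiers were used, so even this counting error may be understated. Whether fewer cells of a type or less miRNA per cell lies behind a difference cannot be told apart in whole leaves.

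The other 3′-arm member, miR1507c-3p, was scarce, with 301 control and 187 chilled reads. Its log2 ratio was -0.93 (-1.20 to -0.67). In reads, miR1507a exceeded miR1507c-3p 37.1-fold in the control library and 152-fold in the chilled library, although both are 22 nt long and share a seed. With both entries of miR1507a added, these folds come to 74.2 and 303.

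Of the 5′ arms, miR1507c-5p had 2332 control reads and 1350 chilled reads, with a log2 ratio of -1.03 (-1.13 to -0.94). MIR1507a-p5 had 4485 and 3224.5 reads and stood at -0.72 (-0.79 to -0.66). MIR1507b-p5, from the hairpin on chromosome 17, had 1155 and 1058.5 reads and a ratio of -0.37 (-0.49 to -0.25). Each of these intervals lay wholly below 0, and the 3 intervals did not overlap one another. The wider interval of miR1507c-3p overlapped those of miR1507c-5p, the other arm of its hairpin, and MIR1507a-p5. The order of levels in the control library was miR1507a, MIR1507a-p5, miR1507c-5p, MIR1507b-p5 and miR1507c-3p, and it was the same in the chilled library. Among all 381 sequences miR1507a held rank 9 by reads in control leaves and rank 7 in chilled leaves.

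**Figure D1:**
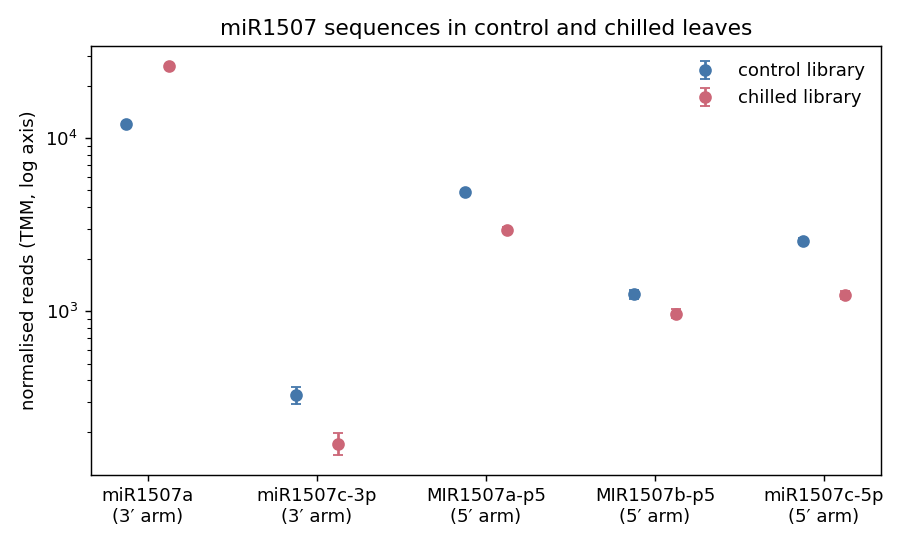
Normalised reads (TMM, log axis) of the 5 miR1507 sequences in the control and the chilled library, with bars for the exact 95% Poisson interval of the reads. miR1507a lies higher in the chilled library (26041 against 12155), and the other 4 sequences lie lower there.

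Size was judged by a 2-fold rule, a log2 ratio of at least 1 either way in a sequence with 10 normalised reads in at least 1 library, with a pseudocount of 1. All 5 members reached that minimum. miR1507a met the rule as higher, as did 31 of the 212 sequences tested (14.6%), and miR1507c-5p met it as lower, as did 33 of 212 (15.6%). Thus 2 of 5 members passed, against 30.2% of all sequences tested, a share from which 5 members cannot be set apart. The member just outside the rule was miR1507c-3p at -0.93, and just inside was miR1507c-5p at -1.03, whose interval spans the limit. The median log2 ratio of the 5 members was -0.72, against 0.06 over all 212. By length, the 40 tested sequences of 22 nt had a median of 0.39, with 27 above 0 and 13 below. The 135 tested sequences of 21 nt had a median of -0.23, with 58 above 0 and 77 below. Whether length bears on the direction of the members was not tested. miR1507a combined its higher ratio with high abundance. Among the 39 sequences with at least 1000 normalised reads in both libraries, 0 had a higher ratio than miR1507a, whereas 29 of all sequences tested did, and 10 of the 40 tested sequences of 22 nt.

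**Figure D2:**
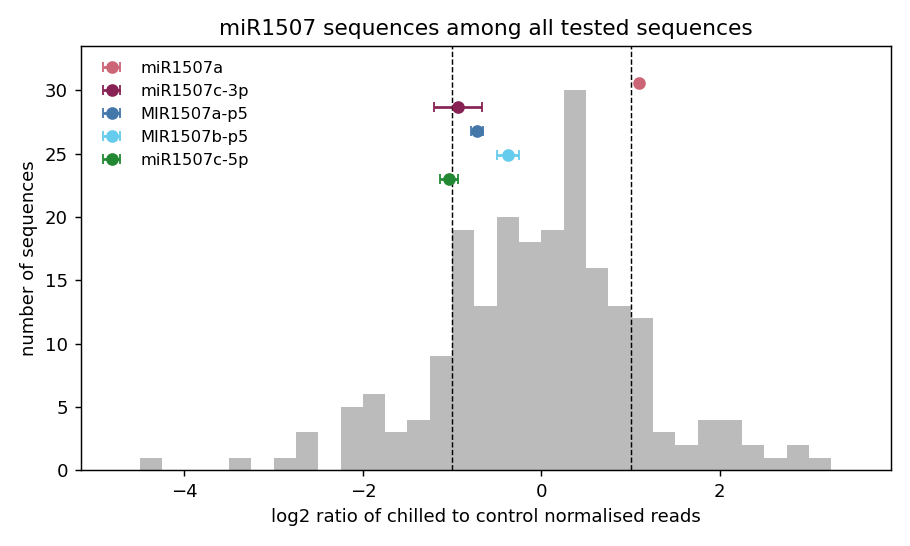
Distribution of the log2 ratio of chilled to control normalised reads over the 212 tested sequences (grey bars, number of sequences), with the 5 miR1507 sequences as points and their 95% counting intervals as bars, at heights chosen for legibility. Dashed lines mark the 2-fold limits. miR1507a lies to the right of the upper limit at 1.10 and the other members lie between -1.03 and -0.37.

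The calls depended on how the libraries were scaled. With the same table total in both libraries miR1507a stood at 0.87 and missed the rule, while miR1507c-3p, at -1.15, then met it. miR1507c-5p lost its call with unscaled reads (-0.79), with a total that left out miR3522 (-0.83) and with the median ratio of abundant sequences set to 0 (-0.83). The sequences of miR3522, among them its opposite arm MIR3522-p3, hold most reads of both libraries, and that total left all of them out. The direction of each of the 5 members was the same under the 6 scalings run.

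**Figure D3:**
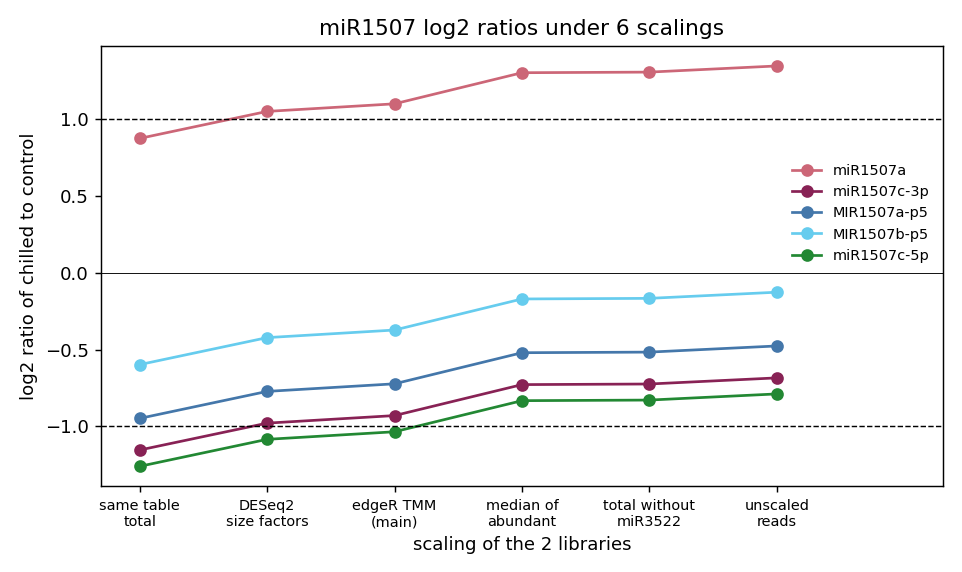
Log2 ratio of chilled to control for each miR1507 sequence under 6 ways of scaling the 2 libraries, with dashed lines at the 2-fold limits. miR1507a stays above 0, from 0.87 to 1.35, and the other 4 stay below 0.

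As shares of the profiled reads left when miR3522 is set aside, miR1507a made up 2.43% in the control library (2.38 to 2.47, 95% Wilson interval) and 6.00% in the chilled one (5.93 to 6.07). By the same measure, again without miR3522, MIR1507a-p5 made up 0.975% of control reads (0.947 to 1.00) and 0.682% of chilled reads (0.659 to 0.706). Of the reads of the 66 profiled sequences of 22 nt, miR1507a made up 16.3% in control (16.1 to 16.6) and 25.3% in chilled leaves (25.1 to 25.6). Other 22-nt reads of the libraries are not part of these shares. With all entries of each sequence added, miR1507a made up 2.89% and 7.27% of the profiled reads without miR3522, in control and chilled leaves. Of the profiled 22-nt reads it then made up 23.2% and 34.8%. With 1 entry per sequence it held rank 2 by reads among the 22-nt sequences of both libraries. Within the family its share of reads was 57.4% (56.7 to 58.1) in control and 83.0% (82.6 to 83.4) in chilled leaves, or 73.0% and 90.7% with all entries added.

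Both arms of a hairpin are read in the same library, so the ratio between them does not depend on the scaling of the libraries. In the MIR1507a hairpin the 3′ arm exceeded the 5′ arm 2.49-fold in control and 8.80-fold in chilled leaves, a 3.54-fold higher ratio (95% interval 3.36 to 3.72). In the MIR1507b hairpin the 3′ arm exceeded the 5′ arm 9.66-fold and 26.8-fold, a 2.77-fold higher ratio (2.54 to 3.03). Both values use the same miR1507a reads, so they are not independent, and a hairpin's own share of those reads is not known.

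The MIR1507c hairpin behaved otherwise in both respects. There the 5′ arm was the abundant one, 7.75-fold above the 3′ arm in the control library and 7.22-fold in the chilled library. The 3′ arm made up 11.4% of the hairpin's control reads (10.3 to 12.7) and 12.2% of its chilled reads (10.6 to 13.9), a 1.07-fold change of the ratio between arms (0.88 to 1.31) whose interval includes 1. In the MIR1507a hairpin the 3′ arm made up 71.3% (70.6 to 72.0) and 89.8% (89.5 to 90.1). The interval of the change in MIR1507c lay wholly below those of the 2 other hairpins, by counting error alone.

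Arms that diverge are not rare in this table. Of the 97 hairpins in which both arms passed the minimum, which hold 76 distinct pairs of arms, 37 had arms on opposite sides of 0. The median distance between the log2 ratios of both arms was 0.71. It was 1.82 in MIR1507a, which ranked number 18 of the 97 by size, 1.47 in MIR1507b, number 25, and 0.11 in MIR1507c, number 92. In 9 of the 97 hairpins the arms lay past 0.5 in opposite directions, and MIR1507a was among them.

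**Figure D4:**
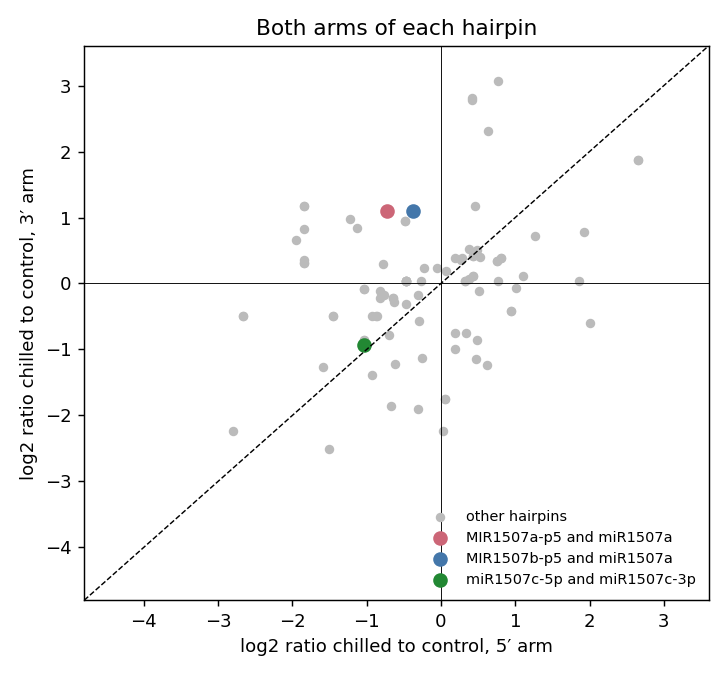
Log2 ratio of chilled to control for the 3′ arm (vertical axis) against the 5′ arm (horizontal axis) in each of 97 hairpins with both arms above the minimum. The hairpins MIR1507a and MIR1507b lie in the upper left, with a 3′ arm at 1.10 and 5′ arms at -0.72 and -0.37, and MIR1507c lies on the dashed line of equal ratios.

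Summed over all members the family came to 19433.5 reads in the control library and 34182.5 in the chilled one, for a log2 ratio of 0.57 (0.54 to 0.59). This sum pools members of both directions. The 3′-arm sum stood at 1.07 (1.04 to 1.10) and the 5′-arm sum at -0.75 (-0.80 to -0.70). The 3′ arms made up 59.0% of the family's control reads (58.3 to 59.7) and 83.5% of its chilled reads (83.1 to 83.9).

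The 4 other families listed as acting on NB-LRR resistance genes had sums on both sides of 0. The sum of miR1510 stood at -0.86 (-0.88 to -0.85), on 123306 control and 80455.5 chilled reads, and that of miR2109 at -0.70 (-0.93 to -0.48). miR2118 lay at 0.44 (0.39 to 0.49), and miR482 at -0.17 (-0.23 to -0.11). These sums pool both arms. Taken singly, the 3′ arms miR482a-3p and miR482b-3p stood at 0.23 and 0.39, above 0 unlike the miR482 sum. The 3′ arm miR1510a-3p stood at -0.49 and miR2118a-3p at 0.39. For miR2109 the sequence with degradome pairs is the 5′ arm, which stood at -0.70. Its opposite arm MIR2109-p3 stood at -0.78. Of the 13 sequences of these 4 families that were tested, 0 were 2-fold higher and 0 were 2-fold lower, with 6 above 0 and 7 below and a median of -0.05. Over all sequences tested these shares were 14.6% and 15.6%, as given above. These are ratios of 2 libraries and were not tested against each other.

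With 2 libraries, likeness to miR1507a can only be measured by the distance between log2 ratios. Among 36 sequences outside the family with at least 1000 normalised reads in both libraries, the closest was miR396b-3p at 0.95 (0.85 to 1.04), a distance of 0.15. It was followed by miR168a, of the family that targets Argonaute 1, at 0.94 (0.85 to 1.03), a distance of 0.16. MIR156o-p3, the opposite arm of a miR156 hairpin, stood at 0.82 (0.77 to 0.88).

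The degradome library addressed which transcripts the members may cut. Degradome sequencing reads the 5′ ends left on messenger RNAs after cutting. In the authors' deposited table each pair carries an alignment score, in which lower values mean closer pairing in the usual scheme, an abundance at the cut site named TPB that the authors did not spell out, and a category from 0 to 4. Target callers usually place in category 0 the 1 site with the most reads of a transcript, and in category 2 a site above the transcript's median but below its highest. Both 3′-arm sequences had pairs, and 0 pairs were listed for the 5′-arm sequences.

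miR1507a, the member higher after chilling, had a single pair in the authors' deposited table. It was Glyma.03G137200.1, annotated as an NB-ARC domain-containing disease resistance protein and listed as cut at position 982 of the transcript with an alignment score of 4. The site had 326 TPB, category 2 and the authors' p = 0.346 in that deposited table. An alignment score of 4 was the highest in the table and was shared by 21.2% of its pairs.

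miR1507c-3p, the scarce member, had the other 6 pairs, at 3 loci and all with an alignment score of 3.5 in the authors' deposited table. Glyma.05G006900.1, an NB-ARC resistance protein, was listed as cut at position 1068 with 163 TPB, category 2 and the authors' p = 0.912 in the deposited table. Glyma.04G137800, also an NB-ARC resistance protein, was listed for 2 transcripts, cut at position 931 in the first and 866 in the second, with 81.4 TPB, category 2 and the authors' p = 0.912 for both in the deposited table. The sites of the resistance genes thus lay at positions from 866 to 1068 of their transcripts.

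The third locus of miR1507c-3p was not a resistance gene. Glyma.14G014000 is annotated as a pyridoxal-phosphate-dependent enzyme, with the class of cysteine synthase, which makes cysteine from O-acetylserine and sulfide. In the authors' deposited table its 3 transcripts were listed as cut at position 66 with 81.4 TPB each. The deposited table places 2 of them, Glyma.14G014000.2 and Glyma.14G014000.3, in category 0 at the authors' p = 0.0412 and the third, Glyma.14G014000.1, in category 2 at the authors' p = 0.912. These are the only miR1507 pairs of the deposited table with a p-value under 0.05, against 143 of its 898 pairs. The abundance at this site was as low as at the weakest resistance gene site and below the median of 358 TPB over the 259 category 0 pairs of the deposited table. Over the 305 category 2 pairs, the category of all resistance gene sites of miR1507, the medians were 81.4 TPB and an authors' p of 0.922.

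So 3 of the 4 loci of miR1507 (75.0%, 95% Wilson interval 30.1 to 95.4) were annotated as NB-ARC or disease resistance genes, against 13 of 275 loci in the whole deposited table (4.73%, 2.78 to 7.92). The share is 0 of 1 when only category 0 or 1, or only the authors' p-value under 0.05, is kept. These filters are not separate checks, since the lowest authors' p of any category 2 pair in the deposited table was 0.183. Each pair also rests on alignment of the sequences, and its part in this share was not tested. The exact wording NB-ARC domain-containing disease resistance protein was given to 4 pairs in the deposited table, all of miR1507 and at 3 loci. It concerns the annotation text only. Another 31 resistance gene pairs, of other families, were worded as TIR-NBS-LRR, so NB-ARC targets are not shown to be particular to miR1507.

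The other resistance gene pairs of the deposited table numbered 33, over 22 transcripts at 10 loci, and 31 of these pairs were annotated as the TIR-NBS-LRR class. They belonged to miR1510, miR2109, miR5668 and, with a single pair, the miR3522 family. None of the 13 resistance loci was paired with more than 1 family, and 0 of the 4 loci of miR1507 were paired with another family. In the deposited table miR1510 had 22 resistance gene pairs. Each transcript is listed there under both miR1510a-3p and miR1510b-3p, which are the same sequence, so the pairs count each transcript more than once. Of the pairs 4, from 2 transcripts of 1 locus, lay in category 0 with 204 TPB and the authors' p = 0.0341. The other 18, from 9 transcripts at 3 loci, lay in category 4 with 8.14 TPB. The 5 pairs of miR2109 and the 5 of miR5668 in the deposited table all lay in category 4 with 8.14 TPB. The single pair of the miR3522 family was listed for MIR3522-p3, the arm opposite miR3522. It lay in category 2 with 326 TPB in that table, as did the pair of miR1507a. The 4 resistance gene pairs of miR1507 all lay in category 2, at 81.4 to 326 TPB. For miR482 and miR2118 the deposited table held 1 pair each, and neither was annotated as a resistance gene.

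**Figure D5:**
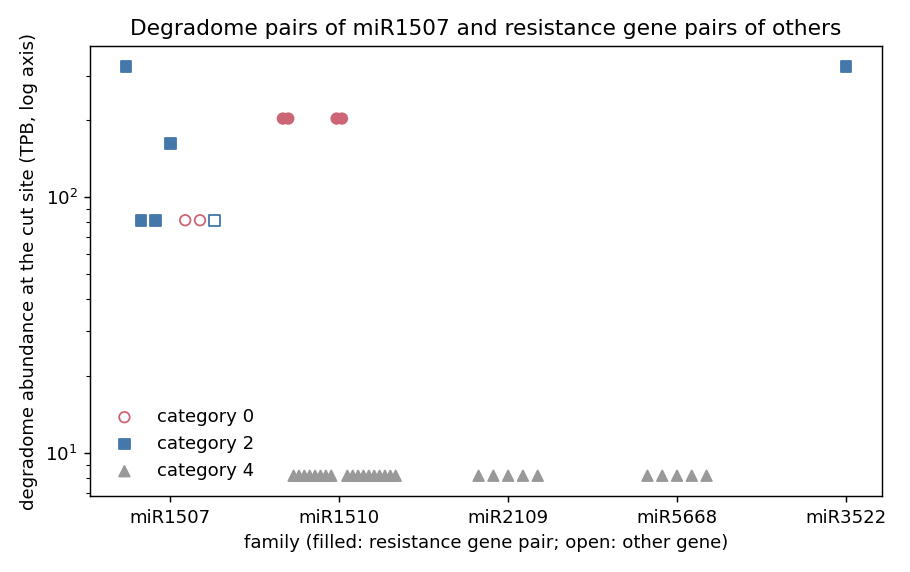
Degradome abundance at the cut site (TPB, log axis) of the 7 pairs of miR1507 and the 33 resistance gene pairs of other families in the authors' table, by family, with the category as the symbol and open symbols for genes of other kinds. The miR1507 pairs lie between 81.4 and 326 TPB, and its category 0 symbols are open.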

How the data were processed

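Per the labels' protocols, small RNA libraries were made with an Illumina TruSeq kit from leaf RNA of 3 pooled replicates per condition and read single-end. No source used here names the trimming, the aligner, the callers of miRNAs and targets, or the genome build. The authors deposited reads per entry, named raw reads per the file headers and not scaled to depth, and since many hold fractions these were taken as estimated counts and rounded here to whole numbers. Hairpin properties, among them GC percent and folding energy, were copied from the deposited profile. The deposited degradome table gives an abundance signal (TPB), an alignment score, a category and a p-value per pair, used as the authors gave them. In the copy used, 6 lines of the profile were empty and are not analysed here.

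One entry was kept per distinct sequence, the one with the most reads. Libraries were scaled with edgeR 4.0.16 (TMM, R 4.3.3), by which the chilled library's scale exceeded the control's by 0.25 (log2). TMM was also run on simulated reads with as many raised as lowered sequences, which cannot decide between the scalings of these libraries. Size factors of DESeq2 1.42.0, a common total, a total without miR3522, a median of abundant sequences (at least 100 reads) and unscaled reads were alternatives, with another pseudocount, other minimums and summed entries. Ratios carry exact conditional binomial intervals and shares Wilson intervals, at 95%. With 1 library per condition, no test of the difference was made. Named were every miR1507 sequence and locus, 4 other families by sum, and the 3 sequences of closest ratio. The pattern for resistance genes was searched in the annotation text. Members and lists were chosen with earlier results of these data known.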

Additional observations from a re-analysis of the deposited data

How the results depend on the processing

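Each of the 5 members kept its direction under the alternatives run, and 33 values under other settings lay within the counting interval of the main value or, for counts, within 1.5 times of it, while the 35 below did not. Under DESeq2 size factors miR1507a stood at 1.05 and the family sum at 0.52. With the same table total, miR1507c-5p stood at -1.26, MIR1507a-p5 at -0.95, miR1507a at 0.87, MIR1507b-p5 at -0.60 and the sum at 0.34. With the total without miR3522 these were -0.83, -0.52, 1.31, -0.17 and 0.77, with the median of abundant sequences -0.83, -0.52, 1.30, -0.17 and 0.77, and with unscaled reads -0.79, -0.48, 1.35, -0.13 and 0.81. These shifts follow from the scaling itself. With all entries of a sequence added, the family sum came to 0.78 and the 3′ share to 73.9% of control and 91.0% of chilled reads, because miR1507a then counts at both loci, and with the 3′ arm alone the sum was 1.07. The number of members past 2-fold was 1 with the total without miR3522, the median of abundant sequences and unscaled reads, against 2 otherwise. The share of all sequences past 2-fold fell from 30.2% to 19.3% with a pseudocount of 10 and to 21.2% at a minimum of 100 normalised reads. In the degradome, keeping category 0 or 1, or the authors' p-value under 0.05, left 1 locus, of which 0% were resistance genes. The shares and the read ratio of miR1507a with all entries added, given beside the main values, were chosen after seeing the data. No paired analysis was possible because each condition had 1 library. The 301 and 187 reads limit miR1507c-3p, and the depth behind TPB is unknown.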

Other observations

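Other hairpins in which both arms lay past 0.5 on the log2 scale in opposite directions were named after their values were seen. The 3′ arm was the higher one, as in MIR1507a, in the hairpins of MIR156a-p3 (1.17 against -1.84 for miR156a), MIR156o-p3 (0.82 against -1.84), miR1508a (0.66 against -1.94), miR1535a (0.98 against -1.23) and MIR5767-p3 (0.84 against -1.13). It was the lower one in the hairpins of miR397b-3p (-1.24 against 0.62) and miR4416a, whose own ratio of -0.60 differed from that of its 5′ arm by -2.60.

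The seed of miR1507a and miR1507c-3p was also found in 1 of the sequences outside the family, a 3′-arm sequence of 18 nt under the potato name stu-miR156h-3p, with 0.5 control and 0 chilled reads. The 5′-arm seeds of miR1507 were found in 0 other sequences. Over ungapped alignments, the closest sequence outside the family shared 12 of 22 bases with miR1507a, 14 of 22 with miR1507c-3p (miR4362) and 13 of 21 with each 5′ arm.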
